A study of Mus musculus with 14 samples.

Results

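Degradome sequencing reads the 5′ ends of RNA fragments that carry a 5′ monophosphate and a polyA tail, and a position at which many reads start is called a pile-up site. The 344 sites described here lie in named genes, other than Mir, Snor and Scarna genes, and were listed as pile-up sites in the Dicer experiment but not, at the same base and strand, in the parallel Drosha experiment of the same study. They were chosen by exact locus from a table of 4666 sites, of which 378 further genic sites were listed in both experiments, 1717 sites without a gene were listed in the Dicer experiment only, 2104 sites without a gene were listed in both and 123 lay in the excluded small RNA genes. The 344 sites lay in 301 genes as the table names them, 265 of which had 1 site, and 48 of these genes held a pile-up site at another base in the Drosha experiment. Absence there was by exact base: none of the 344 had a Drosha-experiment site within 2 nt on its strand, but 7 had one within 10 nt, among them both sites of 5430416N02Rik.

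Both groups were mouse embryonic stem cells (ESCs) homozygous for a floxed Dicer allele (Dicer fl/fl), grown with LIF on mitomycin C-inactivated mouse embryonic fibroblast feeders. Control cells received a GFP retrovirus and Dicer-deficient cells a GFP-Cre retrovirus; each library comes from cells selected by flow sorting for GFP on day 3 and grown for another 2 days. Each group had 2 libraries, and since the sources used here do not say whether the 2 came from separate transductions, p-values measure only the spread between libraries, which may be technical. The Drosha experiment used another ESC line (Drosha fl/fl with a tamoxifen-inducible Cre), so absence from its table can reflect the line, its libraries or the site caller, and these cannot be told apart.

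Dicer cuts pre-miRNA hairpins into miRNA duplexes, and Argonaute loaded with a miRNA can slice an mRNA that pairs with it along nearly its whole length. 5′ monophosphate ends also arise in ordinary RNA turnover: decapping exposes the first transcribed base, exonucleases stop at bound ribosomes or protein complexes such as the exon junction complex, which sits a short fixed distance upstream of spliced junctions, and splicing followed by debranching frees the first base of an intron. The sites are therefore ordered below by where they lie on the transcript. The choice of sites used this place in part: a gene had to be named, and all 344 sites lay in an exon of a listed transcript. Sites without a named gene are not covered by the shares below.

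The sites that lay at a splice junction are shown first, because the exact base is what defines them. At 21 of the 344 sites (6.1%) the first base of the reads was the first base of an annotated intron, the G of the GT that opens it. No site lay on intron bases 2 to 10. Intron positions were taken only for sites placed in retained-intron, nonsense-mediated decay or other non-coding transcripts of coding genes. Of the 378 genic sites listed in both experiments, 28 (7.41%) lay on an intron's first base, and no difference between these shares was tested. The genome sequence (GRCm38, RefSeq) over 12 bases of exon and 18 of intron is given for 5 of them, with the GT in capitals, for Hsp90ab1, a cytosolic HSP90 chaperone (minus strand, chr17:45571747-45571776), Top2a, the type II topoisomerase of dividing cells (minus strand, chr11:99018778-99018807), Nrf1, a transcription factor of nuclear genes for mitochondrial proteins (plus strand, chr6:30098564-30098593), Odc1, the first enzyme of polyamine synthesis (plus strand, chr12:17549575-17549604), and Gapdh, a glycolytic enzyme (minus strand, chr6:125162460-125162489).
Hsp90ab1: aatgcttcagatGTgagtattctgttgttg
Top2a: agaaagtgacagGTagaggactgggagaaa
Nrf1: ttggagaatgtgGTaagtaagatctgagca
Odc1: ccggctctgacgGTatgtggtggcagggtg
Gapdh: ctggagaaacctGTatgtatggggagagct

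The second junction position lay in exons. Of the 211 sites with a downstream exon junction in their transcript, 47 lay 24 to 30 nt before the last base of the exon, whereas the flanking windows of the same width held 4 (17 to 23 nt) and 7 (31 to 37 nt), and 30 of the 47 lay at 26 or 27 nt. The genic sites listed in both experiments had 40 of 212 in the same window, with 7 and 1 in the flanking windows. The 47 sites lay in 46 genes, 43 of them in coding sequence, and began with T in 24 cases, C in 17, A in 4 and G in 2. The examples show 30 bases from the site with the intron bases beyond the exon end in capitals: 5430416N02Rik, a long non-coding RNA (minus strand, chr5:100429323-100429352), Rbm25, a splicing factor (plus strand, chr12:83664233-83664262), Brd2, a reader of acetylated histones (minus strand, chr17:34113930-34113959), Tra2a, a splicing regulator (minus strand, chr6:49248983-49249012), and Eif4a2, an RNA helicase of translation initiation (plus strand, chr16:23110317-23110346).
5430416N02Rik: gactgattggagaatggcgccaaatggGTA
Rbm25: tcgaaataaggatcggagtcgatcaagGTA
Brd2: tcatcgcctagcagagctgcaggagcagGT
Tra2a: tttgagagaatagatgactctaaggagGTA
Eif4a2: ttccagaaattaaatacaagcattcagGTA

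**Figure D1:**
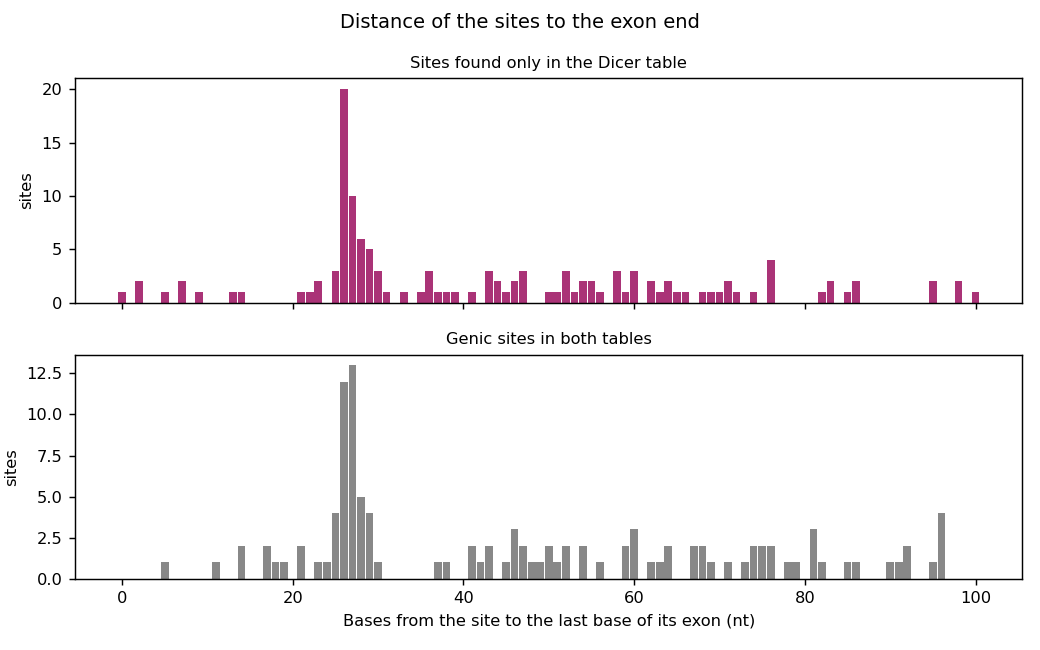
Number of sites (vertical axis) by the number of bases from the site to the last base of its exon (horizontal axis, nt, 0 to 100), for genic sites found only in the Dicer table (top) and genic sites in both tables (bottom). In both sets the counts peak at 26 and 27 nt, where 30 and 25 sites lie.

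**Figure D2:**
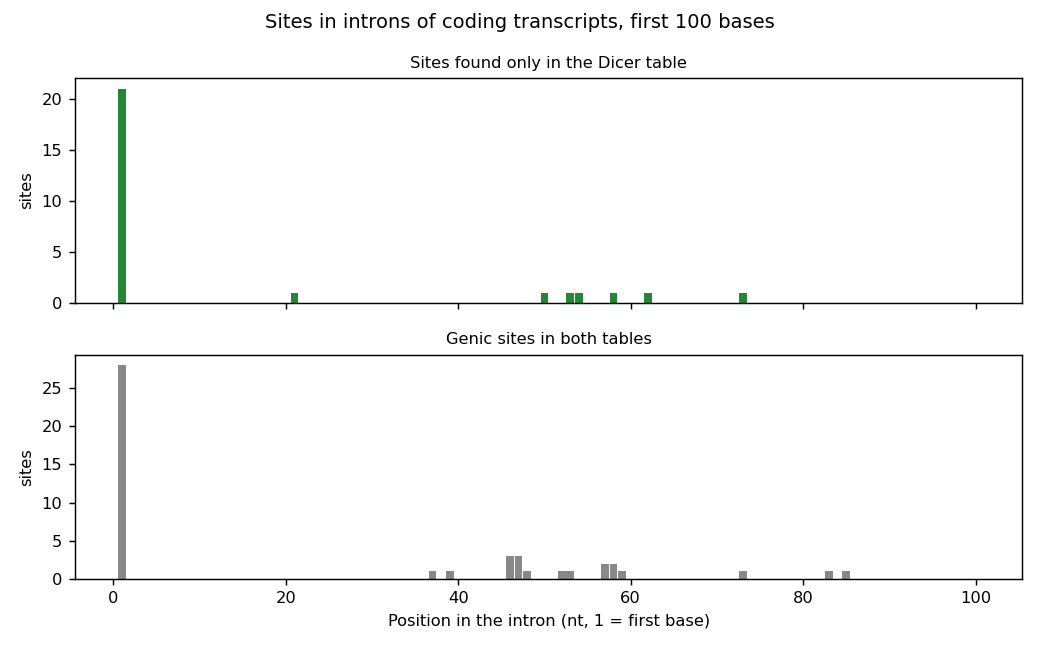
Number of sites (vertical axis) by position in the intron (horizontal axis, nt, 1 for the first base, up to 100), for genic sites found only in the Dicer table (top) and genic sites in both tables (bottom). The first base holds 21 and 28 sites, and bases 2 to 10 hold none.

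At transcript starts, 10 sites lay on the first base of an annotated transcript and 19 (5.52%) within 5 nt of one, against 61 of the 378 genic sites in both experiments (16.1%). Besides protein-coding genes such as Snrnp70, the U1 snRNP 70 kDa protein, and the ribosomal protein gene Rpl13a, these included Rn7s2, the RNA of the signal recognition particle (minus strand, chr12:69361452-69361481), the nuclear lncRNA Malat1 (minus strand, chr19:5802642-5802671) and Snhg5, an snoRNA host RNA (minus strand, chr9:88522859-88522888). Their first 30 bases are given with the first base in capitals.
Rn7s2: Gccgggcgcggtggcgcacgcctgtagtcc
Malat1: Aggcattcaggcagcgagagcagagcagcg
Snhg5: Cttttacgacggagcctaagatattctttg

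A smaller set had repeated sequence. For 290 sites the first 30 bases occurred once in the genome, 32 had 2 to 5 exact copies and 22 had more, 10 of these over 100 copies. Sites in the lncRNA gene Gm20274 (plus strand, chr7:122995739-122995768) and in Gm49359 began with the same 30 bases, which have 10162 copies in the genome and match the start of the B2 short interspersed element, whereas the site in Chchd4, a mitochondrial import gene (minus strand, chr6:91471676-91471705), began as the B1 element does, which descends from the same RNA as Rn7s2. Both are printed with the motif searched in capitals.
Gm20274: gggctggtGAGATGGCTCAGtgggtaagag
Chchd4: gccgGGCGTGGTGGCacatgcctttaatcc
The motif GAGATGGCTCAG lay in the first 30 bases of 13 sites (3.78%, against 20.7% of all 4666 sites) and GGCGTGGTGGC in 6 (1.74%, against 11.5%). Of the genic sites in both experiments, 5 (1.32%) held each motif, and no difference was tested. Both strands were searched, every match was on the strand of the reads, and the letters were taken from these sites after their sequences had been seen. Between Dicer-deficient and control cells the median log2 fold change of those 13 was -0.66, against -0.37 over the 965 sites of the whole table with that motif, of which 361 were lower and 68 higher in both Dicer-deficient libraries. Of the 13, 5 were lower and 0 higher, whereas the 5 genic sites in both experiments with the motif had a median of 0.75, with 2 lower and 3 higher. For GGCGTGGTGGC it was 0.073 over the 6 sites, with 2 lower and 2 higher in both Dicer-deficient libraries, and 0.24 over the 538 sites of the whole table, of which 66 were lower and 226 higher. A pile-up in such sequence cannot be given to 1 gene with certainty.

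Against annotated transcripts, 127 sites (36.9%, exact 95% interval 31.8 to 42.3%) lay in coding sequence, 54 (15.7%) in 5′ UTRs, 52 (15.1%) in 3′ UTRs, 47 (13.7%) only in retained-intron transcripts of coding genes, 38 in lncRNA or other non-coding genes, 14 (4.07%) only in nonsense-mediated decay transcripts, 7 in pseudogenes and 5 in other non-coding transcripts of coding genes. All 344 lay on the sense strand of an exon of a transcript named in the table. Of the genic sites in both experiments, 114 (30.2%) lay in coding sequence, 68 in retained-intron transcripts and 77 (20.4%) in non-coding genes. Within coding sequence, the sites fell on codon bases 1, 2 and 3 in 48, 37 and 42 cases. Of the 344 sites, 6 lay inside an annotated snoRNA whose name or host name escaped the exclusion, among them 2 in Hspa8, which hosts Snord14c and Snord14d, and 16 more lay within 200 nt of one. These shares were 1.74% and 4.65%, against 14.8% (56 sites) and 6.08% (23 sites) of the genic sites in both experiments.

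The bases around the sites were not even. G made up 27.7% of the 300 bases around the 344 sites, but 42.4% at the fifth base of the reads, 41.6% at the sixth and 40.7% at the eleventh, while A made up 14.8% directly upstream. The 377 genic sites in both experiments with a full sequence window had G at 34.0%, 30.8% and 43.8% at the same bases and A at 12.5% upstream, and no difference between the sets was tested. At 28 sites (8.14%) the genome reads TCT directly upstream, the same 3 bases that end the RNA linker, against 12.2% of genic sites in both experiments.

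None of the sites paired with any of the 43 ESC miRNAs searched as a slicer target would. With bases 2 to 21 of 43 miRNAs placed so that the site lay opposite the bond between bases 10 and 11, 0 of 344 sites had at most 4 mismatches (a wobble counting 0.5), and the same search 100 nt upstream and 100 nt downstream also gave 0. The closest were Tmeff1, a transmembrane protein gene, with 5.5 mismatches to miR-18a-5p, and Polr3gl, a subunit gene of RNA polymerase III, with 6.0 to miR-31-5p at its intronic site; 7 sites tied at 7.0, among them sites in Myh9, Nudt4, Ccar1, Vim and Nanog. At up to 7 mismatches the sites numbered 9, and the offset searches gave 11 and 9. The search did find a site in Plekhm1, listed in both experiments, with 2.0 mismatches to miR-17-5p. That site read 2.58 and 1.22 RPM in control and 0.101 and 0.122 RPM in Dicer-deficient cells, close to the 0.101 and 0.0916 RPM that 3 reads amount to there. Its log2 fold change of -3.15 ± 0.68 SE did not pass the limma test over all sites (adjusted p = 0.465). No Dicer1 site was in the table, so these values offer no reading of the deletion itself.

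In level, measured as read starts in RPM, the deposited unit scaled to the mapped reads of a library, the median site stood at 3.23 and 2.75 RPM in control cells, with 2.67 and 2.37 RPM once Dicer had been deleted. The genic sites in both experiments had medians of 5.90, 5.44, 5.41 and 4.58 RPM in the same order. Of the 344 sites, 62 had a mean of at least 10 RPM, 6 of at least 100 RPM and 28 of less than 1 RPM. The controls correlated with Pearson r = 0.905 and the Dicer-deficient libraries with r = 0.949 over the sites on the log2 scale. The sites were listed by the authors from their shape in the control libraries, so control levels had a part in choosing them: 22 sites were below 1.3 RPM, a level picked after the values were seen, in control library 1, 56 in control library 2, and 81 and 90 in the Dicer-deficient libraries. A site in 2810004N23Rik was listed at 0 in all 4 libraries.

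The deepest site lay in Gm28438, a pseudogene (chr1:24613119, minus strand) whose first 30 bases differ from the mitochondrial genome by 1 base. It read 10943 and 9427 RPM in control and 7171 and 6095 RPM in Dicer-deficient cells, which do not overlap (log2 fold change -0.62 ± 0.33 SE). The next was in an intron of Hsp90ab1 (chr17:45570566, minus strand), with 513 and 465 RPM against 447 and 365 RPM, and its site on the first intron base read 55.2 and 44.4 against 30.2 and 31.6 RPM. Both Hsp90ab1 sites were lower in both Dicer-deficient libraries.
Other deep sites overlapped between the groups. Gm47283 on chromosome Y read 223, 189, 215 and 213 RPM (controls first), Rn7s2 226, 150, 256 and 198 RPM, and the ribosomal protein gene Rpl37 98.1, 87.3, 104 and 94.3 RPM. Srsf1, a splicing factor, had a 3′ UTR site with 69.5, 116, 76.8 and 66.7 RPM, and the pseudogene Gm12346 had 142, 99.6, 89.0 and 110 RPM. The first 30 bases have 2 exact copies for the Gm47283 site and 3 each for the Rn7s2 and Gm12346 sites. The Gm12346 site also had TCT directly upstream. The junction site of 5430416N02Rik shown above was lower in both Dicer-deficient libraries, with 138 and 113 against 92.9 and 81.8 RPM. Snhg6, an snoRNA host RNA, was lower in both as well, with 72.7 and 73.3 against 49.0 and 43.8 RPM. Deep UTR sites overlapped in Sub1, a transcriptional coactivator (67.9, 74.1, 76.1 and 54.2 RPM), Serbp1, a ribosome-associated RNA-binding protein (32.2, 40.9, 32.1 and 34.6 RPM), and Mfsd11, a transporter family gene whose site has 80 exact copies (50.7, 33.8, 34.8 and 43.8 RPM). Safb2 and Taf15 were higher in both: Safb2, a scaffold attachment factor gene, read 68.5 and 57.9 against 132 and 129 RPM (log2 fold change 1.05 ± 0.28 SE), and Taf15, an RNA-binding protein gene, read 61.5 and 58.5 against 108 and 88.3 RPM (0.70 ± 0.29 SE).

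**Figure D3:**
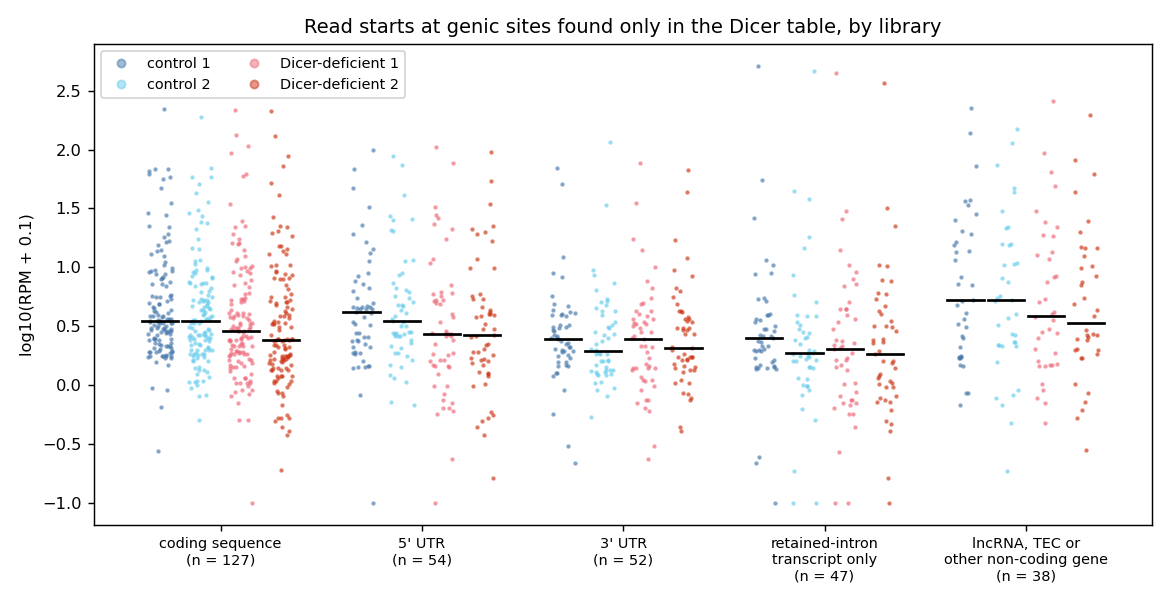
Level of each site as log10(RPM + 0.1) (vertical axis) in the 2 control and 2 Dicer-deficient libraries, for annotation classes with at least 20 sites (horizontal axis). Each point is 1 site and each bar the median over sites: the medians are lower in both Dicer-deficient libraries for coding sequence, 5′ UTRs and non-coding genes.

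Between Dicer-deficient and control cells, no site passed the test with libraries taken as unpaired. In limma on log2(RPM + 0.1), fitted on all 4666 sites with Benjamini-Hochberg adjustment, 0 of 344 sites were called lower and 0 higher at an FDR below 0.05 and a log2 fold change past 1.5, with 0.0% of all sites called in either direction and a lowest adjusted p of 0.465 among the 344. At an unadjusted p below 0.05, 32 sites were lower (9.3%, against 5.19% of all sites) and 12 higher (3.49%, against 4.65%). The median log2 fold change over the sites was -0.37, against -0.12 over all sites, -0.27 over genic sites in both experiments and -0.18 over sites without a gene found only in the Dicer experiment. Both Dicer-deficient libraries were below both controls at 159 sites (46.2%, against 27.4% of all sites) and above at 37 (10.8%, against 16.8%). Past a log2 fold change of 1.5, 11 sites were lower (3.2% of the 344, against 1.46% of all sites) and 4 higher (1.16% of the 344, against 2.55% of all sites). With an unadjusted p below 0.05 as well, 9 were lower (2.62%, against 1.29%) and 3 higher (0.872%, against 1.16%). These counts depended on the added constant. With 0.5 RPM added, 2 were lower (0.581%, against 0.536%) and 2 higher (0.581%, against 0.879%). With 1 RPM added, 0 were lower (against 0.193%) and 2 higher (0.581%, against 0.707%). The 32 sites lower at an unadjusted p became 4 without either Dicer-deficient library and 56 without control library 2, where 14.4% of all sites were lower. Since control libraries helped choose the sites, these counts are a description and not evidence of lower levels without Dicer.

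**Figure D4:**
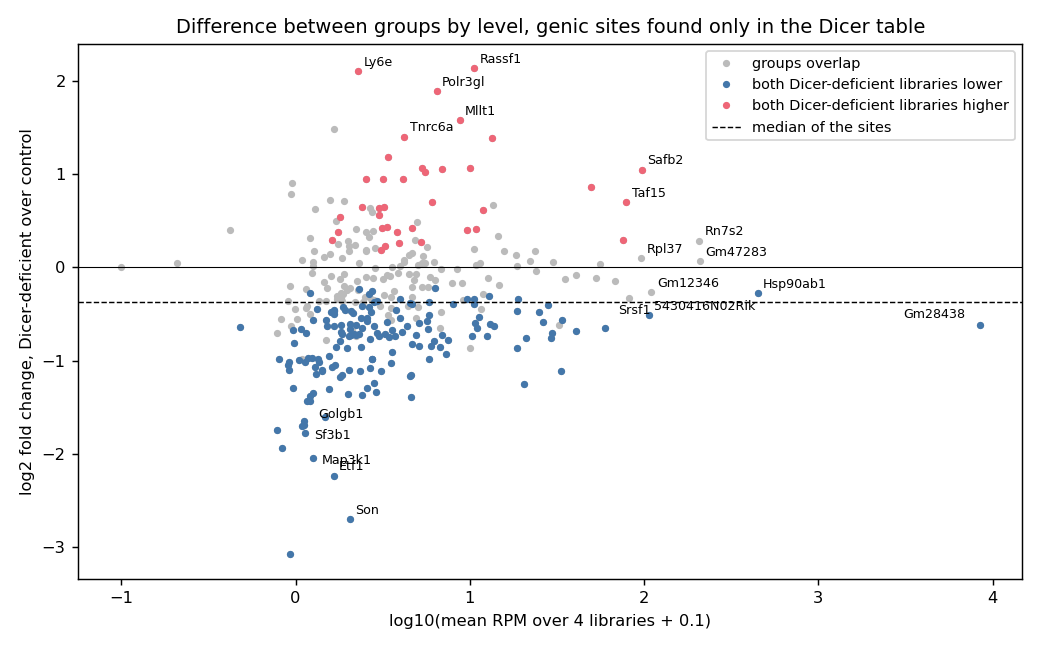
Log2 fold change, Dicer-deficient over control (vertical axis), against log10 of the mean RPM over 4 libraries plus 0.1 (horizontal axis) for the 344 sites; each point is 1 site, coloured by whether the groups overlap, and the dashed line is the median of -0.37. Of the non-overlapping sites, 159 are lower and 37 higher in Dicer-deficient cells.

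By class, both Dicer-deficient libraries were below both controls at 66 of 127 coding-sequence sites and above at 11, with a median log2 fold change of -0.43. Over all sites of the table these shares were 27.4% below and 16.8% above, and the coding-sequence sites listed in both experiments had 49 below and 10 above of 114 (-0.37). The 5′ UTR sites had 30 below and 2 above of 54 (-0.49), against 22 and 9 of 54 for those in both experiments, and the non-coding genes 21 below and 2 above of 38 (-0.50), against 32 and 9 of 77. The 3′ UTR sites had 12 below and 12 above of 52 (-0.12), against 10 and 15 of 41. Sites only in retained-intron transcripts had 19 below and 8 above of 47 (-0.34), against 25 and 10 of 68. Sites 24 to 30 nt before an exon end had 29 below and 1 above of 47 (-0.44), against 19 and 2 of 40 in both experiments. Sites on an intron's first base had 12 below and 4 above of 21 (-0.63), against 6 and 6 of 28, and sites within 5 nt of a transcript start 10 below and 0 above of 19 (-0.28), against 28 and 5 of 61. The 16 sites near but outside an snoRNA had 12 below and 0 above (-0.53), against 13 and 1 of 23. Among sites listed in both experiments, more were below than above in each of these classes except 3′ UTRs and the first base of introns. Differences between these classes were not tested.

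Among the largest decreases with a mean of at least 1 RPM and no overlap was a coding site of Son, which encodes a splicing cofactor, at 3.53 and 2.30 RPM in control against 0 and 1.96 RPM in Dicer-deficient cells. Its log2 fold change of -2.70 ± 1.33 SE rests on the library at 0 and was -0.52 without it. Etf1, the translation termination factor, had a 5′ UTR site at 3.30 and 1.98 against 0.541 and 0.397 RPM (-2.24 ± 0.52 SE, adjusted p = 0.465). Map3k1, a kinase of the JNK pathway, read 1.71 and 1.87 against 0.980 and 0.0916 RPM, and its log2 fold change of -2.05 became -0.80 without Dicer-deficient library 2. Sf3b1, a U2 snRNP subunit gene, read 1.79 and 1.52 against 0.541 and 0.305 RPM at an intronic site of a nonsense-mediated decay transcript. Golgb1, a Golgi membrane protein, read 1.97 and 1.25 against 0.405 and 0.428 RPM. The lowest fold of all, at a mean below 1 RPM, was at a 5′ UTR site of the transferrin receptor gene Tfrc, with 1.82 and 1.31 against 0.135 and 0.0611 RPM. All were shallow sites, at which 3 reads amount to 0.0868 to 0.101 RPM. Their folds depended on the added constant. With 1 RPM added instead of 0.1 RPM, the log2 fold change was -1.17 for Son, -1.29 for Etf1 and -0.92 for Map3k1. Sf3b1 went from -1.78 to -0.90 and Golgb1 from -1.70 to -0.87.

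The largest increases reached higher levels. Rassf1, a tumour suppressor gene, had a 3′ UTR site (chr9:107561575, plus strand) at 4.81 and 3.00 RPM in control against 17.3 and 16.8 RPM in Dicer-deficient cells (log2 fold change 2.14 ± 0.37 SE, adjusted p = 0.465 by limma). Polr3gl read 3.33 and 2.07 against 9.83 and 10.2 RPM at a coding site (1.89 ± 0.39 SE), while its intronic site read 2.40 and 1.78 against 3.34 and 2.20 RPM. The 2 sites of the same gene thus differed in size of change, which was not tested. Mllt1, a chromatin reader of the elongation machinery, read 3.85 and 4.72 against 14.0 and 11.9 RPM in its 3′ UTR (1.58 ± 0.34 SE). Ly6e, a GPI-anchored surface protein, read 0.174 and 1.98 against 2.30 and 4.31 RPM, and its log2 fold change of 2.11 became 0.64 without control library 1. Tnrc6a, which encodes the GW182 partner of Argonaute in miRNA silencing, read 2.29 and 2.10 against 5.00 and 7.09 RPM in a non-coding transcript of the gene (1.40 ± 0.38 SE).
Of these 10 sites, 4 (Son, Mllt1, Ly6e and Tnrc6a) had TCT directly upstream, and the part of such linker-like sequence in their values was not tested. At Ly6e the match to the end of the linker was longer, with ccgatct directly upstream. The Polr3gl coding site (minus strand, chr3:96579831-96579860) and the Safb2 site (minus strand, chr17:56566923-56566952) both lay in coding stretches rich in A and G, and the Golgb1 site (plus strand, chr16:36913808-36913837) is given beside them, each with 15 bases before the site and its first base in capitals.
Polr3gl: gaagaagaggaggagAaggaagagggggag
Safb2: aagatcaaggagcagCgggagagggagcgc
Golgb1: cccgcaaggcgattcTgaaaaaggcacaag

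**Figure D5:**
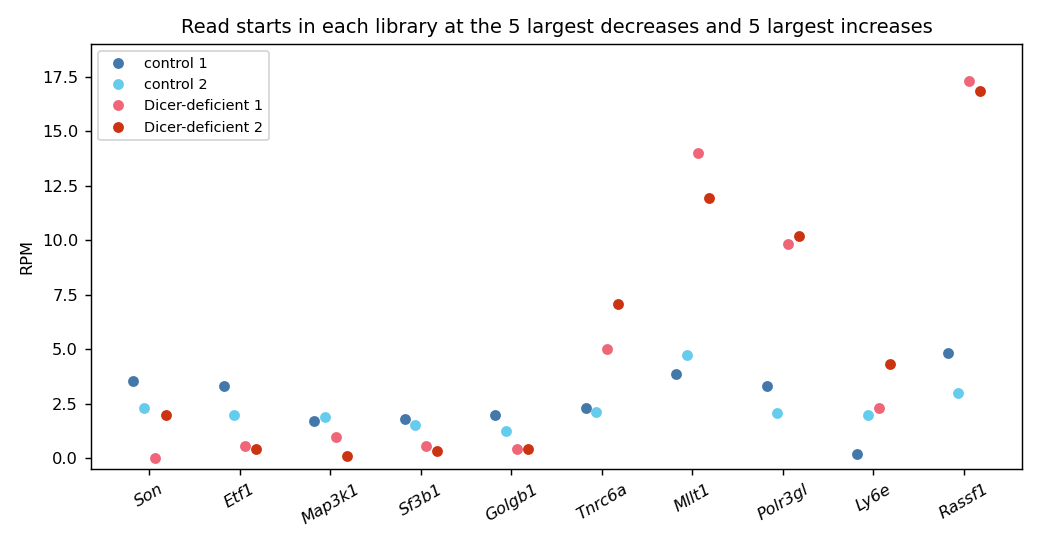
RPM (vertical axis) in each of the 4 libraries for the 5 strongest decreases and 5 strongest increases at sites with no overlap between groups and a mean of at least 1 RPM (horizontal axis). Each point is 1 library; the decreases lie below 4 RPM in every library, and Rassf1 reaches 17.3 RPM.

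Several genes held more than 1 of the sites. Ccar1, a regulator of cell cycle and apoptosis, and Gm26917, a non-coding gene, had 4 each, and Eif4a2, Snhg1 and Taf1d had 3 each. The 3 Eif4a2 sites were all lower in both Dicer-deficient libraries: the junction site read 8.74 and 8.31 against 5.14 and 5.10 RPM, and the others read 3.73 and 4.52 against 2.06 and 1.65 RPM and 3.68 and 3.56 against 2.91 and 1.56 RPM. In Snhg1, an snoRNA host RNA, the 3 sites did not move alike. One read 36.4 and 21.6 against 13.5 and 10.2 RPM (-1.25 ± 0.38 SE), one 37.2 and 43.8 against 30.1 and 24.5 RPM, and another overlapped at 13.4, 15.7, 18.5 and 14.5 RPM. In Taf1d, a subunit gene of the RNA polymerase I factor SL1, the deepest site read 26.3 and 37.9 against 25.4 and 22.3 RPM. The 4 Ccar1 sites overlapped between groups, the deepest at 11.5, 14.5, 13.8 and 10.4 RPM, and so did the shallowest Gm26917 site at 0.753, 1.46, 1.42 and 2.29 RPM, whereas the other Gm26917 sites were lower in both Dicer-deficient libraries, the deepest at 16.3 and 10.5 against 8.34 and 8.28 RPM.

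By gene list, 13 sites were in ribosomal protein genes, of which 3 were lower in both Dicer-deficient libraries and 0 higher (median log2 fold change -0.20), against 15 and 2 of the 43 such sites in the whole table; the deepest were Rpl37, Rpl13a (16.3 and 20.7 against 17.4 and 19.8 RPM) and Rpl31 (22.3 and 9.79 against 12.3 and 13.7 RPM). The 8 lncRNA sites had 6 lower and 0 higher (-0.64), against 22 and 6 of 46 in the whole table. The 6 translation factor sites had 4 lower and 0 higher (-0.73), against 8 and 0 of 11. The 5 heat shock sites had 2 lower and 1 higher (-0.28), against 2 and 2 of 7, and the deeper of the 2 Hspa8 sites read 5.07 and 3.12 against 6.79 and 4.61 RPM. Of pluripotency genes only Nanog (2 sites) and Zfp42 (1 site) were present, with 3.76 and 6.29 against 3.21 and 4.09 RPM at the Nanog 3′ UTR site, which has a Drosha-experiment site 9 nt away, 1.36 and 0.612 against 0.507 and 0.336 RPM at its 5′ UTR site, and 4.46 and 5.62 against 3.68 and 3.94 RPM at Zfp42.
The cytoskeletal sites were Tubb2b at its transcript start (14.2 and 11.2 against 7.03 and 9.78 RPM) and Myh9 on an intron's first base (1.88 and 1.66 against 2.87 and 2.78 RPM). The glycolysis sites were Pkm (2.95, 7.20, 2.80 and 8.03 RPM, overlapping) and the Gapdh site shown above (1.48 and 1.05 against 0.642 and 0.305 RPM). Both have first 30 bases with more than 1 copy in the genome, and Pkm has ccgatct directly upstream, as the linker ends. Dis3, the exosome nuclease, was the 1 RNA decay site (1.79 and 1.72 against 1.32 and 0.428 RPM) and Tnrc6a the 1 miRNA machinery site. Histone genes and the mitochondrial genome held 0. No site on any list passed the limma test.

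For the identity of the cells, the only site in a fibroblast marker gene in the whole table was in Vim, at 2.00, 1.37, 1.52 and 2.08 RPM, with groups overlapping, and the other 19 of 20 fibroblast markers had no site. Of 20 pluripotency genes, 4 had a site in the whole table, so most markers of either kind had none. Which cells were present was therefore not tested by these sites. The 6 sites in pluripotency genes summed to 243 and 255 RPM in control and 313 and 313 RPM in Dicer-deficient cells, a sum carried by 1 site with a mean of 227 RPM. Of the 6, 4 were lower in both Dicer-deficient libraries and 1 was higher, with a median log2 fold change of -0.55. Fewer cells of a type and less RNA per cell cannot be told apart in such bulk libraries.

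RNA-seq was of the Drosha line only. In it, 287 of 301 genes were listed, with a median of 6.86 in the authors' mean log2 CPM, against 2.34 over all 22376 genes and 6.78 for the genes of sites found in both experiments. That mean pools the control and the Drosha-deficient libraries of the line. Across 326 sites, which share libraries, the level of a site and the level of its gene had a Spearman correlation of 0.12.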

How the data were processed

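Degradome libraries of 2 control and 2 Dicer-deficient ESC samples were analysed. Per the paper's methods and the labels, the authors trimmed reads with Trimmomatic 0.38.0, aligned them to GRCm38 (mm10) with STAR, counted read starts at each base and deposited them as RPM, scaled to uniquely and multiply mapped reads. A site was listed when a model trained on known Drosha cleavage sites called it in nearly all runs in both controls, per the methods; 3 of the 344 sites are nonetheless listed at 0 RPM in at least 1 control, for a reason not given in the sources used here. The deposited tables also hold the authors' edgeR 3.26.1 comparisons (log2 fold change, p-value, FDR and, for RNA-seq, the F score), which were not used, and the authors' mean log2 CPM of the RNA-seq, used as a host gene level.

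The sites, gene lists and miRNA list were chosen with earlier results of these data known. RPM plus 0.1 was log2-transformed, and Dicer-deficient and control libraries were compared with limma 3.58.1 (R 4.3.3, mean-variance trend, no covariate) over all 4666 sites with Benjamini-Hochberg adjustment. Calls needed an FDR below 0.05 and a log2 fold change past 1.5, in either direction. On simulated data with 2 libraries a group, limma called 95 of 100 sites changed by a log2 fold of 2 and 0 of 4466 unchanged sites, whereas in the real libraries sites with larger fold changes had adjusted p-values no lower than 0.465. The simulation had a fixed dispersion and no effect of replicate number, so it does not give the power on the real libraries. There the median absolute log2 difference over all sites was 0.65 between the controls and 0.31 between the Dicer-deficient libraries. RPM values stepped by 1 read (0.0289 to 0.0338 RPM, whole within 0.05 of a read for 100% of nonzero values), but recovery of reads failed a separate check in 3 libraries of the series, so the count tests planned as alternatives were not run. Depths of 29598724 to 34547609 reads followed from those steps. Intervals and floors (3 reads) cover counting error only.

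Sites were placed on the transcripts of GENCODE vM21 named in the table: 1796 of 1838 transcripts matched. Sequence came from the RefSeq GRCm38 genome and miRNAs from RefSeq (43 of 46 matched). Named sites were the 10 deepest, the 5 largest decreases and 5 largest increases without overlap at a mean of at least 1 RPM, the 3 deepest of each gene list and of each class with at least 20 sites, the 5 genes with most sites and the 5 sites with fewest miRNA mismatches; Tfrc and the junction, start and repeat examples were chosen after their values were seen. Python 3.11.15, pandas 2.3.3, numpy 2.4.6, scipy 1.17.1 and pysam 0.24.0 were used. Alternatives were other pseudocounts, a level filter, median centring, no trend, a fold threshold of 1, an unadjusted p, a replicate block, leaving out each library, linker-like sites or sites with several copies, and other distance and mismatch limits.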

Additional observations from a re-analysis of the deposited data

How the results depend on the processing

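The count of 0 called sites was also obtained with pseudocounts of 0.5 and 1 RPM, at a mean of at least 1 RPM, with median centring, without the trend, without linker-like sites, with 1-copy sites and at a log2 fold change threshold of 1. It became 9 lower (2.62%, against 1.29% of all sites) and 3 higher (0.872%, against 1.16%), 12 in all, at an unadjusted p below 0.05. That rule gave 2 lower (0.581%, against 0.536% of all sites) and 2 higher (0.581%, against 0.879%) with 0.5 RPM added. With 1 RPM added it gave 0 lower (against 0.193%) and 2 higher (0.581%, against 0.707%). At a mean of at least 1 RPM it gave 4 lower (1.27%, against 1.04%) and 3 higher (0.949%, against 1.32%). Without linker-like sites the lowest adjusted p by limma among these sites was 0.064, against 0.465 in the main fit. With the replicate number as a block, 15 sites were called, 11 lower (3.2%, against 1.44% of all sites) and 4 higher (1.16%, against 2.55%), and those at an unadjusted p went from 32 to 58 lower (16.9%, against 10.2%). All of the 10 largest changes except Tnrc6a were among the 15, with Rassf1 at an adjusted p of 8.2e-05 by limma with the block. Groups share only a replicate number: the deviations of same-numbered libraries correlated at 0.53 over all sites and 0.08 over the 344, with 2 pairs. Leaving out each library gave 0 to 1 calls, 0 to 1 lower. The single call, Son without Dicer-deficient library 2, rests on the library at 0. Leaving out each library gave 4 to 56 sites at an unadjusted p lower (1.16 to 16.3%, against 0.922 to 14.4% of all sites) and 4 to 20 higher (1.16 to 5.81%, against 1.29 to 9.28%), with the lone library assumed to vary like the others. The low ends came without either Dicer-deficient library, the high ends without control library 2. With 1-copy sites, 20 were lower (6.9%, against 5.6% of all such sites).

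The median log2 fold change ranged from -0.49 to -0.28 over all of these; without control library 1 it was -0.28 against 0.0076 over all 4666 sites, and without control library 2 -0.49 against -0.33. Of the 10 deepest and 10 largest changes, 3 deep sites changed sign, without control library 2: over the libraries left out, Gm47283 ranged from -0.055 to 0.18, Rn7s2 from -0.0076 to 0.58 and Srsf1 from -0.69 to 0.043. With no Drosha-experiment site allowed within 10 nt, 337 sites remained, and 344 within 2 nt. Host gene levels over 1-copy sites, added after seeing the data, had a median of 6.92. The count tests (edgeR, DESeq2) and TMM scaling were not run: RPM stepped by whole reads, but a separate check of the recovered reads failed in 3 libraries of the series. At the 28 sites below 1 RPM, few reads limit any fold.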
